A study of Mus musculus with 28 samples.

Results

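Peroxisome genes were taken as the rows of the annotated expression table whose pathway annotation holds the entry Peroxisome, without Nos2, Idh1 and Idh2. The annotation marked 85 of 25301 genes, and 82 remained after those 3 were dropped. They were measured by RNA-seq in 28 libraries of macrophages sorted from the mouse pancreas. All libraries came from wild-type C57BL/6J mice, and the series describes caerulein-treated mice sampled at days 0, 1 and 3 of a model of recovery from acute pancreatitis. Caerulein is a peptide that overstimulates the acinar cells of the pancreas. The groups were NC (3 libraries; the abbreviation is not spelled out, and whether these mice received caerulein is not stated), D0 (5 libraries), the day 1 groups D1 AP+PBS (6) and D1 AP+Lac (6) and the day 3 groups D3 AP+PBS (4) and D3 AP+Lac (4). AP is acute pancreatitis, PBS is buffered saline and Lac is lactate. The sources used here give no doses, ages, sexes or sorting markers. Whether libraries of 1 group are separate mice is not stated, so p-values measure the spread between these libraries, which may be technical.

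Peroxisomes are small organelles bounded by 1 membrane, which shorten very long and branched fatty acids, begin the synthesis of ether lipids and handle hydrogen peroxide. Their matrix proteins are made in the cytosol and carried in by soluble receptors that dock at a membrane complex and are then recycled, steps run by the peroxins. ABC transporters bring in fatty acids as coenzyme A esters, acyl-CoA oxidases take the first step of beta-oxidation and release hydrogen peroxide, and catalase breaks the peroxide down. In macrophages the organelle is known for roles in lipid handling, oxidant balance and the resolution of inflammation.

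Values are FPKM, which divides fragments by transcript length and by the mapped fragments of the library, and each library held 33273304 to 41060493 fragments as recovered from the steps between FPKM values. Of the 82 genes, 65 reached 1 FPKM in at least 3 libraries and were tested. The other 17 stayed below that level, with a highest value of 0.593 FPKM (Ephx2, an epoxide hydrolase, in 1 library of D3 AP+Lac). Among them were Acox2, Hao1, Agxt, Baat, Dao, Ddo, Slc27a2 and Acaa1b, which serve bile acid, glyoxylate and D-amino acid metabolism in liver and kidney or, for Acaa1b, encode a thiolase close in sequence to Acaa1a. Averaged over all libraries, 32 of the 82 genes lay at or above 10 FPKM, 7 at or above 50 and 20 below 1. Sod1, Prdx1 and Prdx5, all antioxidant enzymes that are also found outside peroxisomes, held 39.3% of the summed FPKM of the 82 genes. That sum ran from 1287 to 1407 FPKM in NC, from 1527 to 1661 in D0, from 1408 to 1648 in D1 AP+PBS and from 1299 to 1444 in D3 AP+PBS. With lactate it ran from 1331 to 1568 at day 1 and from 1317 to 1457 at day 3.

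The sorted cells expressed the macrophage markers but also RNA of other pancreatic and immune cells, and both moved with the groups. All 12 macrophage markers were detected at a mean of at least 1 FPKM in all 6 groups. Their mean log2(FPKM + 1) was 8.66 in NC, 8.70 in D0, 8.68 in D1 AP+PBS, 8.25 in D1 AP+Lac, 7.77 in D3 AP+PBS and 8.03 in D3 AP+Lac. Their summed level ranged from 15600 to 17140 FPKM in NC, from 11330 to 12800 in D0 and from 7629 to 11790 in D3 AP+PBS. The 12 acinar markers summed to between 6059 and 9667 FPKM in NC, between 413.7 and 784.2 in D0, between 933 and 5087 in D1 AP+PBS and between 2643 and 20530 in D3 AP+PBS. The B and plasma cell markers (8 of 10 in the table) averaged 5.65 in NC, 2.33 in D0, 5.83 in D1 AP+PBS and 6.22 in D3 AP+PBS, and the T and NK cell markers (11 of 12) averaged 3.69, 1.93, 4.14 and 5.61 in the same order, all on the log2(FPKM + 1) scale. The 10 neutrophil markers went the other way, averaging 3.83 in D0 against 2.58 in NC, 2.69 in D1 AP+PBS and 2.67 in D3 AP+PBS. They summed to between 271.4 and 761.9 FPKM in D0 and between 99.6 and 226.9 FPKM in NC. Of these 10, Mmp9 (53.9 FPKM in NC and 16.8 FPKM in D0) and Ngp (0.617 and 0.287 FPKM) were lower in D0. None of these markers was at 0 in all libraries of a group. Libraries 5 and 6 of D1 AP+PBS and of D1 AP+Lac stood apart from the rest of their groups, with a median correlation to their own group of 0.947 and 0.973 for PBS and 0.964 and 0.961 for lactate. Results at day 1 are therefore also given without these 4 libraries.

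**Figure D1:**
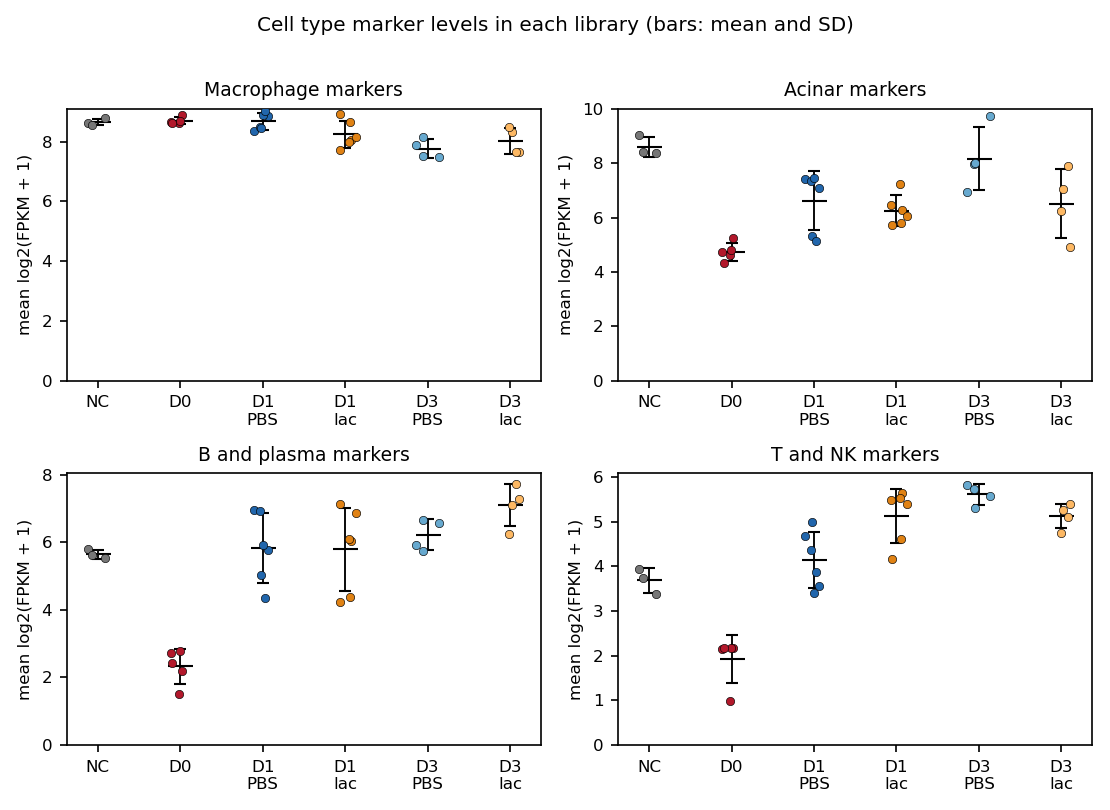
Mean log2(FPKM + 1) of the macrophage, acinar, B and plasma, and T and NK marker lists in each of the 28 libraries, by group. Points are libraries and bars are the mean and SD; D0 has the lowest group mean for the acinar, B and plasma, and T and NK lists (4.74, 2.33 and 1.93), and the D3 AP+PBS libraries have the lowest mean for macrophage markers (7.77).

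The first comparison asked how peroxisome genes differed between macrophages at day 0 of pancreatitis and the NC group. Catalase, the very-long-chain fatty acid transporter Abcd2, the branched-chain oxidase Acox3 and the acyl-CoA synthetase Acsl3 were lower at D0, while phytanoyl-CoA hydroxylase (Phyh), peroxiredoxin 5 (Prdx5), xanthine dehydrogenase (Xdh) and the ether lipid enzyme Agps were higher. Among the 65 genes tested, 12 were higher and 25 lower in D0 at an adjusted p below 0.05 (limma on log2(FPKM + 1), Benjamini-Hochberg over 11960 genes). These were 18.5% and 38.5% of the genes tested, near the 19.7% higher and 41.4% lower among all genes. The median log2 difference, meaning the difference of group means of log2(FPKM + 1), was -0.13 for the peroxisome genes and -0.22 for all genes. Rescaling the libraries by the median ratio over genes moved the median of all genes by 0.25. The split of the peroxisome genes became 19 higher and 14 lower, beside 33.8% and 29.5% of all genes. All 12 higher calls and 14 of the 25 lower calls held under both scalings. In bulk RNA, fewer cells of a type and less RNA per cell cannot be told apart.

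All 9 tested genes of the membrane and transport role were called at D0, 7 lower and 2 higher. Of all genes, 41.4% were lower and 19.7% higher. Abcd2, which imports very long fatty acyl-CoA, was 7.15, 7.51 and 10.4 FPKM in the NC libraries and 3.36, 3.02, 3.74, 3.16 and 3.01 FPKM in the D0 libraries. Every D0 library lay below every NC library, and the log2 difference was -1.12 ± 0.20 (SE; adjusted p = 4.4e-05, limma). Pxmp4, a membrane protein of the organelle, was 3.47, 3.83 and 3.70 FPKM in NC and 1.23, 1.46, 1.11, 1.13 and 0.969 FPKM in D0. The groups did not overlap there either (log2 difference -1.10 ± 0.11, SE; adjusted p = 6.6e-09). Slc25a17, a carrier of cofactors, fell from a mean of 25.8 ± 0.352 (SD, n = 3) to 18.4 ± 2.59 FPKM (SD, n = 5). The 2 higher members were Mpv17l2, at 12 FPKM in NC and 20.1 FPKM in D0 on average, and Abcd3, the most widely expressed transporter of the family, at 4.54 and 5.81 FPKM. Under median-ratio scaling the lower calls of this role that held were only those of Abcd2, Pxmp2 and Pxmp4, beside 29.5% of all genes lower. Slc25a17, Abcd4 (log2 difference -0.17) and Mpv17 (-0.19) were among those no longer called.

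Of the 16 peroxins tested, 12 were not called at D0 in the deposited scale. Pex5, the receptor for most matrix proteins, was 18.9, 17.6 and 17.5 FPKM in NC and 10.8, 11.6, 11.3, 12.6 and 12.7 FPKM in D0 (log2 difference -0.57 ± 0.11, SE; adjusted p = 0.00011). The groups were separate, but the call was lost under median-ratio scaling. Pex6, an ATPase that pulls the receptor back out of the membrane, and its membrane anchor Pex26 were lower by both scalings, Pex6 by -0.61 ± 0.11 (SE; adjusted p = 5.8e-05) in the deposited scale. Pex2, a ubiquitin ligase subunit that marks the receptor for recycling, went the other way, from 6.76, 7.41 and 7.76 FPKM in NC to 11.1, 10.4, 11, 11 and 10.9 FPKM in D0. The Pex2 call was lost with the acinar or the lymphocyte marker level as a covariate. The docking protein Pex14 (mean 13.0 FPKM in NC and 14.5 FPKM in D0) and the division factor Pex11a (1.79 and 1.33 FPKM) did not pass the test. After median-ratio scaling Pex14 was called higher (0.42, adjusted p = 0.0064, limma), as were Pex16 (0.40), Pex7 (0.27) and Pex19 (0.21). Pex11a was still not called.

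Among 23 fatty acid genes tested, 5 were higher and 11 lower at D0. Phyh, which starts the alpha-oxidation of phytanic acid, was 24.0, 29.9 and 24.8 FPKM in NC and 66.7, 64.9, 79.2, 67.2 and 70.2 FPKM in D0. The lowest D0 library was thus far above the highest NC library, and the log2 difference was 1.38 ± 0.18 (SE; adjusted p = 5.9e-07, limma). Hacl1, the lyase that acts after Phyh in the same pathway, was in contrast among the lower genes, at a mean of 1.70 FPKM in NC and 0.731 FPKM in D0. Acaa1a, the thiolase of the last beta-oxidation step, rose from 33.9, 41.5 and 33.1 FPKM to 59.7, 57.2, 69.7, 65.2 and 66.1 FPKM (log2 difference 0.80 ± 0.10, SE; adjusted p = 4.1e-07); reads of its close copy Acaa1b may be counted with it. Acox3 was 11.8, 12.9 and 11.6 FPKM in NC and 8.78, 8.48, 6.75, 6.71 and 6.58 FPKM in D0, all lower. Hsd17b4, the bifunctional enzyme of the branched-chain route (mean 43.6 and 44.6 FPKM), and the sterol carrier thiolase Scp2 (49.1 and 46.1 FPKM) were not called. Ehhadh, the bifunctional enzyme of the straight-chain route, fell from a mean of 2.63 to 0.586 FPKM, and Crot, which makes carnitine esters for export, fell from 6.06 to 3.66 FPKM. Of the acyl-CoA synthetases, Acsl3 was 6.59, 5.61 and 5.95 FPKM in NC and 0.989, 1.61, 1.16, 1.47 and 1.42 FPKM in D0, the lowest difference among the 65 genes on this scale (log2 difference -1.6 ± 0.16, SE; adjusted p = 8.3e-09). Acsl1 (mean 7.32 and 5.33 FPKM) and Acsl4 (14 and 10.4 FPKM) were lower in the deposited scale but not after median-ratio scaling, and Acsl5 (55.5 and 51.9 FPKM) was not called.

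The antioxidant genes split. Cat was 56.8, 48.5 and 58.3 FPKM in NC and 25.6, 23.6, 22.4, 20.4 and 23.8 FPKM in D0. No library of the 2 groups overlapped, and the log2 difference was -1.20 ± 0.13 (SE; adjusted p = 4.3e-08, limma). Gstk1, a glutathione transferase, fell as well, from a mean of 6.51 to 2.71 FPKM. Prdx5, a peroxiredoxin of peroxisomes, mitochondria and cytosol, was 102, 158 and 102 FPKM in NC and 259, 228, 235, 275 and 266 FPKM in D0 (log2 difference 1.08 ± 0.25, SE; adjusted p = 0.00076). Prdx1, which is mainly cytosolic, was 153, 172 and 171 FPKM in NC and 276, 241, 238, 242 and 253 FPKM in D0. Xdh, which can release superoxide and hydrogen peroxide, was 50.5, 53.6 and 58.0 FPKM in NC and 111, 110, 131, 102 and 108 FPKM in D0. Adding the acinar marker level to the model gave an Xdh difference of -0.19, which was not called. The Prdx5 call was also lost with the acinar level. With the lymphocyte level as a covariate the Prdx5, Prdx1 and Xdh calls were lost. The superoxide dismutases Sod1 (mean 162.7 and 171.8 FPKM) and Sod2 of mitochondria (12.5 and 18.7 FPKM; adjusted p = 0.054) did not pass in the deposited scale. After median-ratio scaling both were called higher, Sod1 by 0.36 and Sod2 by 0.85 (adjusted p = 0.038 and 0.0056, limma). In the ether lipid branch Agps, which makes the ether bond, rose from 14.5, 16.8 and 18.9 FPKM to 26.6, 28.6, 26.8, 28.7 and 29.3 FPKM (log2 difference 0.71 ± 0.10, SE; adjusted p = 2.8e-06). Gnpat, which acts just before it (19.9 and 17.5 FPKM), and Far1, which supplies fatty alcohol (33.9 and 31.4 FPKM), were not called.

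**Figure D2:**
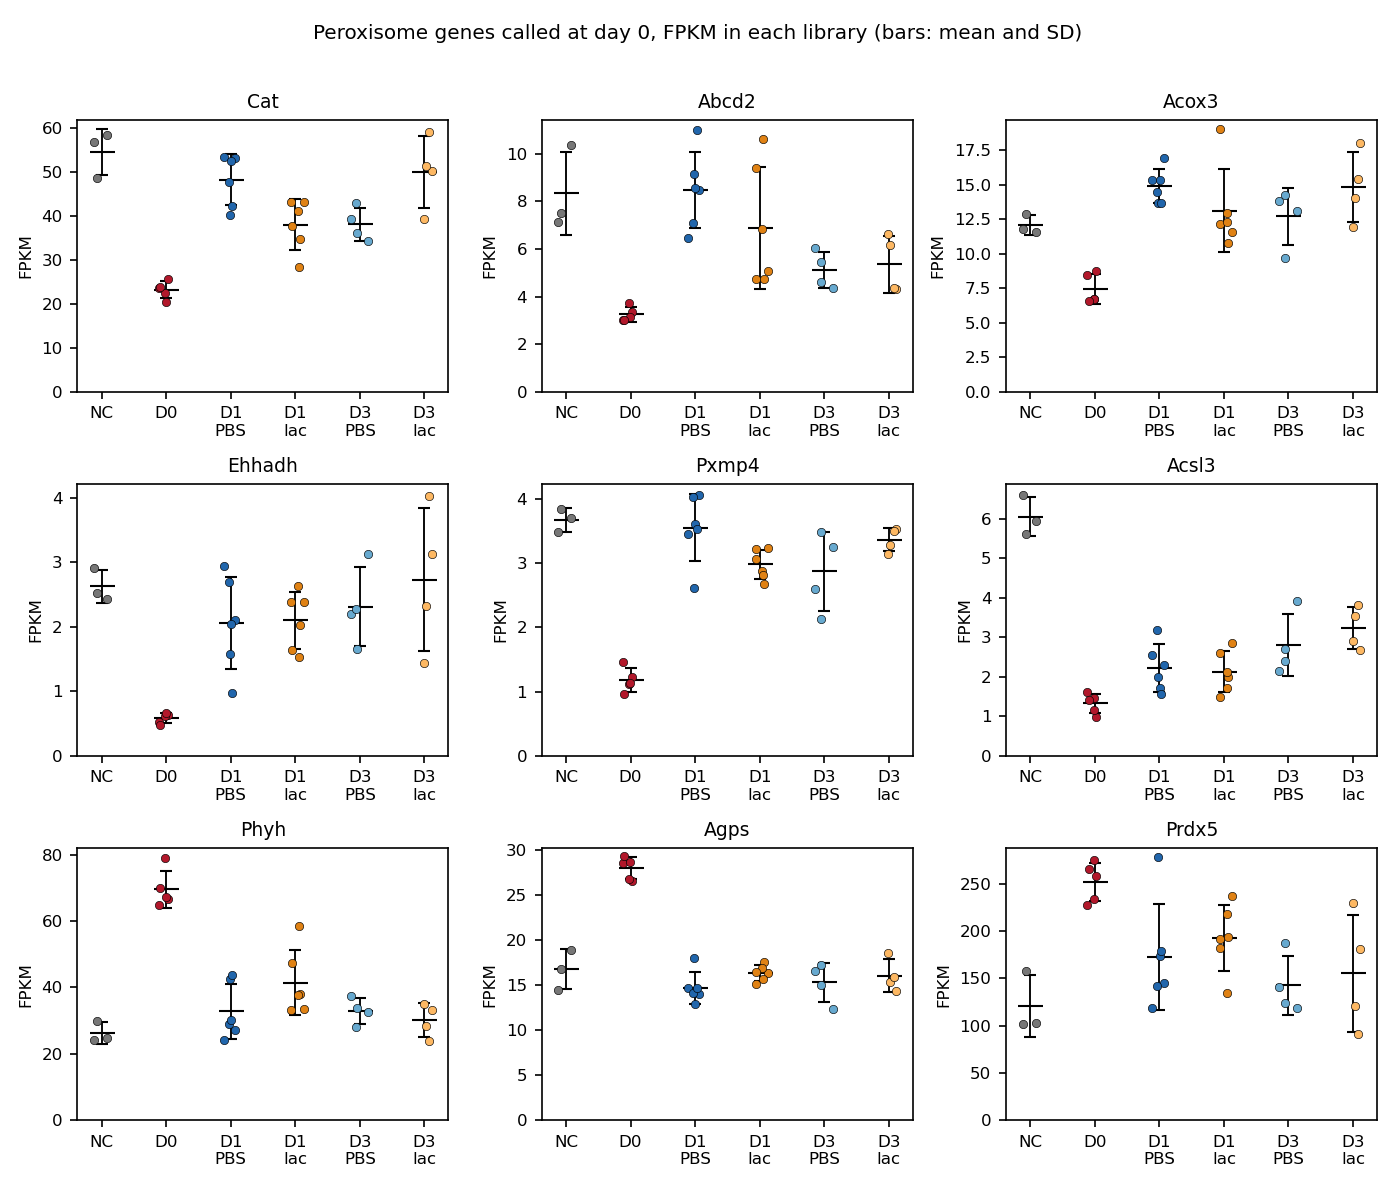
FPKM of 9 peroxisome genes in each library of the 6 groups; points are libraries and bars are the mean and SD, with axes from 0. Cat, Abcd2, Acox3, Ehhadh, Pxmp4 and Acsl3 are lowest at D0, and Phyh, Agps and Prdx5 have their highest group mean there (69.6, 28 and 252.4 FPKM).

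Promoter windows of Cat and Phyh are shown because both genes belong to oxidative branches of the organelle and moved in opposite directions at D0. The window of Mpv17, a membrane protein that was lower with lactate at day 1 (described further on), is added for comparison. Each window runs from 250 bases before the RefSeq gene start to 50 bases after it, in build GRCm38.p6, and is read on the gene's strand. Capitals mark AGGTCA or its reverse complement TGACCT, the half-site read by nuclear receptors such as PPAR and RXR, in Cat (204 bases before the start) and Phyh (36 bases after it). In Mpv17 they mark the E-box CACGTG (24 bases after it). The windows lie at chr2:103485104-103485403 on the minus strand (Cat), chr2:4918746-4919045 on the plus strand (Phyh) and chr5:31154202-31154501 on the minus strand (Mpv17).
Cat: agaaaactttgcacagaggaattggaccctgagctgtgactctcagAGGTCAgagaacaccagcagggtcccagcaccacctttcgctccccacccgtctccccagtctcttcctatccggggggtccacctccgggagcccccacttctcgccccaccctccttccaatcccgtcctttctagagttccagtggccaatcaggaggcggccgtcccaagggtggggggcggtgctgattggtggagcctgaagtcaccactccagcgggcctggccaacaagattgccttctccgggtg
Phyh: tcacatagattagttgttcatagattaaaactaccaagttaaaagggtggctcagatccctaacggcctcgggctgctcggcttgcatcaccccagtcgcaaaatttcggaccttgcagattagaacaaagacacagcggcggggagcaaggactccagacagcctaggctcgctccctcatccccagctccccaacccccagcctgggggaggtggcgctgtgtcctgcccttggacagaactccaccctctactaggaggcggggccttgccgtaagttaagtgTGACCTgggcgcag
Mpv17: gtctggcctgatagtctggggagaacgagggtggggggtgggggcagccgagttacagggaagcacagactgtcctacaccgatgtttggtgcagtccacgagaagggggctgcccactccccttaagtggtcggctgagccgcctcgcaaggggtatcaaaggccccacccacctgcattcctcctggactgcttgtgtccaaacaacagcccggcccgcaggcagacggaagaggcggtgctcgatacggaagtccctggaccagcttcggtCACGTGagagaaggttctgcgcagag
RefSeq windows were found for 62 of the 82 genes, 75 windows in all. AGGTCA on either strand was present in 9 of them (12%), against 16.3% of all 32851 windows, and CACGTG in 4 (5.33%), against 7.15%. Cat and Phyh therefore hold the same half-site within these letters, and a match describes the sequence only.

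From D0 to D1 AP+PBS, the comparison of early recovery with day 0, most of these differences ran the other way. Cat, Abcd2, Acox3, Pxmp4, Gstk1 and Pex5 were higher at day 1, and Phyh, Agps, Xdh, Prdx5 and Pex2 lower. Both comparisons contain the D0 libraries, so a reversal is not a separate observation, and the values of all 3 groups are given side by side. Of the 65 genes, 32 were higher and 12 lower (49.2% and 18.5%), against 43% higher and 19.8% lower of all genes. The medians were 0.22 and 0.19 on the log2 scale. Median-ratio scaling moved the median of all genes by -0.22 and gave 19 higher and 21 lower, beside 30.3% and 35.6% of all genes. Of the calls in the deposited scale, 19 of the 32 higher and all 12 lower held under both.

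Cat was 40.3 FPKM in the lowest, 50.1 in the median and 53.3 in the highest D1 AP+PBS library, all above the highest D0 library (25.6 FPKM) beside 48.5 to 58.3 FPKM in NC. The log2 difference from D0 was 1.02 ± 0.11 (SE; adjusted p = 3.4e-08, limma). Abcd2 ran from 6.48 through 8.54 to 11 FPKM (1.14 ± 0.17, SE; adjusted p = 3.0e-06). Acox3, with a lowest library of 13.7, a median of 14.9 and a highest of 17.0 FPKM, was above both D0 and NC libraries. For these genes the day 1 and day 0 libraries did not overlap. Pex5 (14.8, 20.6 and 23.2 FPKM as lowest, median and highest) and Pex6 (14.2, 18.7 and 21.2 FPKM) also lay wholly above D0. Pex13, the docking partner of Pex14, was at 10.3, 11.5 and 15.6 FPKM in the same order, above every D0 library (6.27 to 7.87 FPKM) and every NC library (6.80 to 8.65 FPKM).

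Among the genes that fell, Phyh ran from 24.2 through 29.6 to 43.8 FPKM at day 1, below every D0 library (log2 difference -1.09 ± 0.15, SE; adjusted p = 1.1e-06, limma). Its 2 highest day 1 values, 42.5 and 43.8 FPKM, were those of libraries 5 and 6. Agps, at 12.8, 14.4 and 18.0 FPKM (lowest, median, highest), was likewise below all D0 libraries (-0.89 ± 0.09, SE; adjusted p = 5.9e-09). Xdh fell to a mean of 69.4 ± 12.4 FPKM (SD, n = 6) and Prdx5 to 172.9 ± 56.2 FPKM. With the lymphocyte level as a covariate the Xdh difference was 0.41, and with the acinar level -0.10, neither called. For Prdx5 the groups overlapped, since library 5 of D1 AP+PBS was at 278 FPKM. Its call was lost with the acinar or the lymphocyte level as a covariate. The Phyh and Pex2 calls were lost with the lymphocyte level. Sod1 rose to 215, 232 and 260 FPKM (lowest, median, highest), above all D0 libraries (114 to 195 FPKM). The Sod1 call was lost under median-ratio scaling (log2 difference 0.18) and with the acinar or the lymphocyte level as a covariate. Pipox, a peroxisomal oxidase of sarcosine and pipecolate, was listed at 0 in all 5 D0 libraries and ranged from 0 to 1.44 FPKM at day 1, so no fold is given. The small higher call of Gnpat (0.26) changed sign under median-ratio scaling, to -0.012. Adding the acinar marker level to the model left 15 genes called in D0 against NC (5 higher, 10 lower, beside 11.1% and 16.7% of all genes) and 28 in D1 AP+PBS against D0 (22 higher, 6 lower, beside 29.4% and 16.2%). With the lymphocyte level 28 were called in the first comparison (6 higher, 22 lower, beside 23.4% and 19.7% of all genes) and 27 in the second (22 higher, 5 lower, beside 15.6% and 23.6%). Genes that included Abcd2, Acox3, Cat, Crot, Gstk1, Mlycd and Pxmp4 (lower at D0) and Agps and Mpv17l2 (higher at D0) were called without a change of direction under both covariates in both comparisons.

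From day 1 to day 3 with PBS, the carnitine acyltransferase Crat, the polyamine oxidase Paox, Hsd17b4, Abcd2, Pex5 and Mpv17 were lower, and the synthetases Acsl5 and Acsl4 and the fatty alcohol enzyme Far1 were higher. Of the 65 genes, 3 were higher and 20 lower (4.62% and 30.8%), against 21.5% higher and 12.8% lower of all genes. The median log2 difference was -0.13 for the peroxisome genes and 0.10 for all genes. By role, 9 of 23 fatty acid genes, 4 of 9 membrane genes and 3 of 16 peroxins were lower. Median-ratio scaling moved the median of all genes by -0.11 and called 1 gene higher and 28 lower, beside 13.9% and 18.3% of all genes. The macrophage marker level fell over the same interval (8.68 to 7.77) and the T and NK level rose (4.14 to 5.61). With the macrophage level as a covariate, chosen after seeing the data, 5 genes were called, all lower: Cat, Crat, Hsd17b4, Pex5 and Pipox. All genes then stood at 1.95% higher and 3.69% lower. With the lymphocyte level 15 were called, 4 higher and 11 lower, beside 9.30% and 10.1% of all genes.

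Crat, which moves acyl groups between coenzyme A and carnitine, was 8.84, 13.7 and 17.2 FPKM at day 1 (lowest, median, highest) and 6.56, 5.53, 7.33 and 6.68 FPKM at day 3. No library overlapped, and the log2 difference was -0.96 ± 0.15 (SE; adjusted p = 6.2e-05, limma). Hsd17b4 was 40.4, 51.5 and 57.7 FPKM and then 25.6, 31.4, 31 and 32.7 FPKM (-0.73 ± 0.11, SE; adjusted p = 8.8e-05). Here too no day 3 library reached the lowest day 1 library. Mpv17, a small channel-like membrane protein, was at 12, 14.4 and 18.5 FPKM and then at 11, 10.0, 9.66 and 9.79 FPKM (-0.52 ± 0.09, SE; adjusted p = 0.00016). Pex5 fell from a median of 20.6 FPKM to 13.2, 14.3, 13.5 and 11.3 FPKM, and Paox from a mean of 3.72 to 1.76 FPKM. With the macrophage covariate the Abcd2 difference of -0.62 became 0.021, and against NC the difference of -0.60 became 0.025. Acsl5 was 38.0, 44.5 and 53.5 FPKM and then 55.3, 56.8, 61.1 and 65.1 FPKM, all higher (0.42 ± 0.09, SE; adjusted p = 0.0018). It was the 1 higher gene also called after median-ratio scaling.

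Against NC, the day 3 PBS libraries had 2 peroxisome genes higher and 12 lower, with 10.3% of all genes higher and 10.9% lower. Crat was 17.3, 17.0 and 16.1 FPKM in NC, against 5.53 to 7.33 FPKM at day 3 (log2 difference -1.25 ± 0.17, SE; adjusted p = 1.1e-05, limma). Acsl3 was 2.15, 3.92, 2.71 and 2.40 FPKM at day 3 and remained below every NC library (5.61 to 6.59 FPKM). Cat was 39.3, 34.3, 42.8 and 36.1 FPKM at day 3, also below NC (-0.51 ± 0.14, SE; adjusted p = 0.012). The lower genes also included Mpv17, Abcd2, Hsd17b4, Abcd4, Pex5, Decr2 and Ech1, of which the last 2 are auxiliary enzymes for unsaturated fatty acids. Pex16, which brings membrane proteins to new peroxisomes, was 9.44, 9.32 and 7.54 FPKM in NC and 12.1, 13.9, 12.1 and 16.1 FPKM at day 3 (0.57 ± 0.14, SE; adjusted p = 0.0063). Sod1 was the other higher gene (0.44 ± 0.15, SE; adjusted p = 0.041), and it was not called after median-ratio scaling. Phyh (mean 26.2 FPKM in NC and 32.9 at day 3), Agps (16.7 and 15.3 FPKM), Xdh (54.0 and 57.2 FPKM) and Prdx5 (120.8 and 142.8 FPKM) did not pass at day 3. This count rested on the NC libraries, with 9 genes called without NC library 1 and 6 without NC library 3. Of all genes, 5.65% were called higher and 7.96% lower without NC library 1, and 3.29% and 6.65% without NC library 3. With the macrophage level as a covariate 10 were called, beside 3.59% higher and 8.41% lower of all genes. Acsl3, Cat, Crat, Mpv17 and Pex16 were called with and without this covariate.

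**Figure D3:**
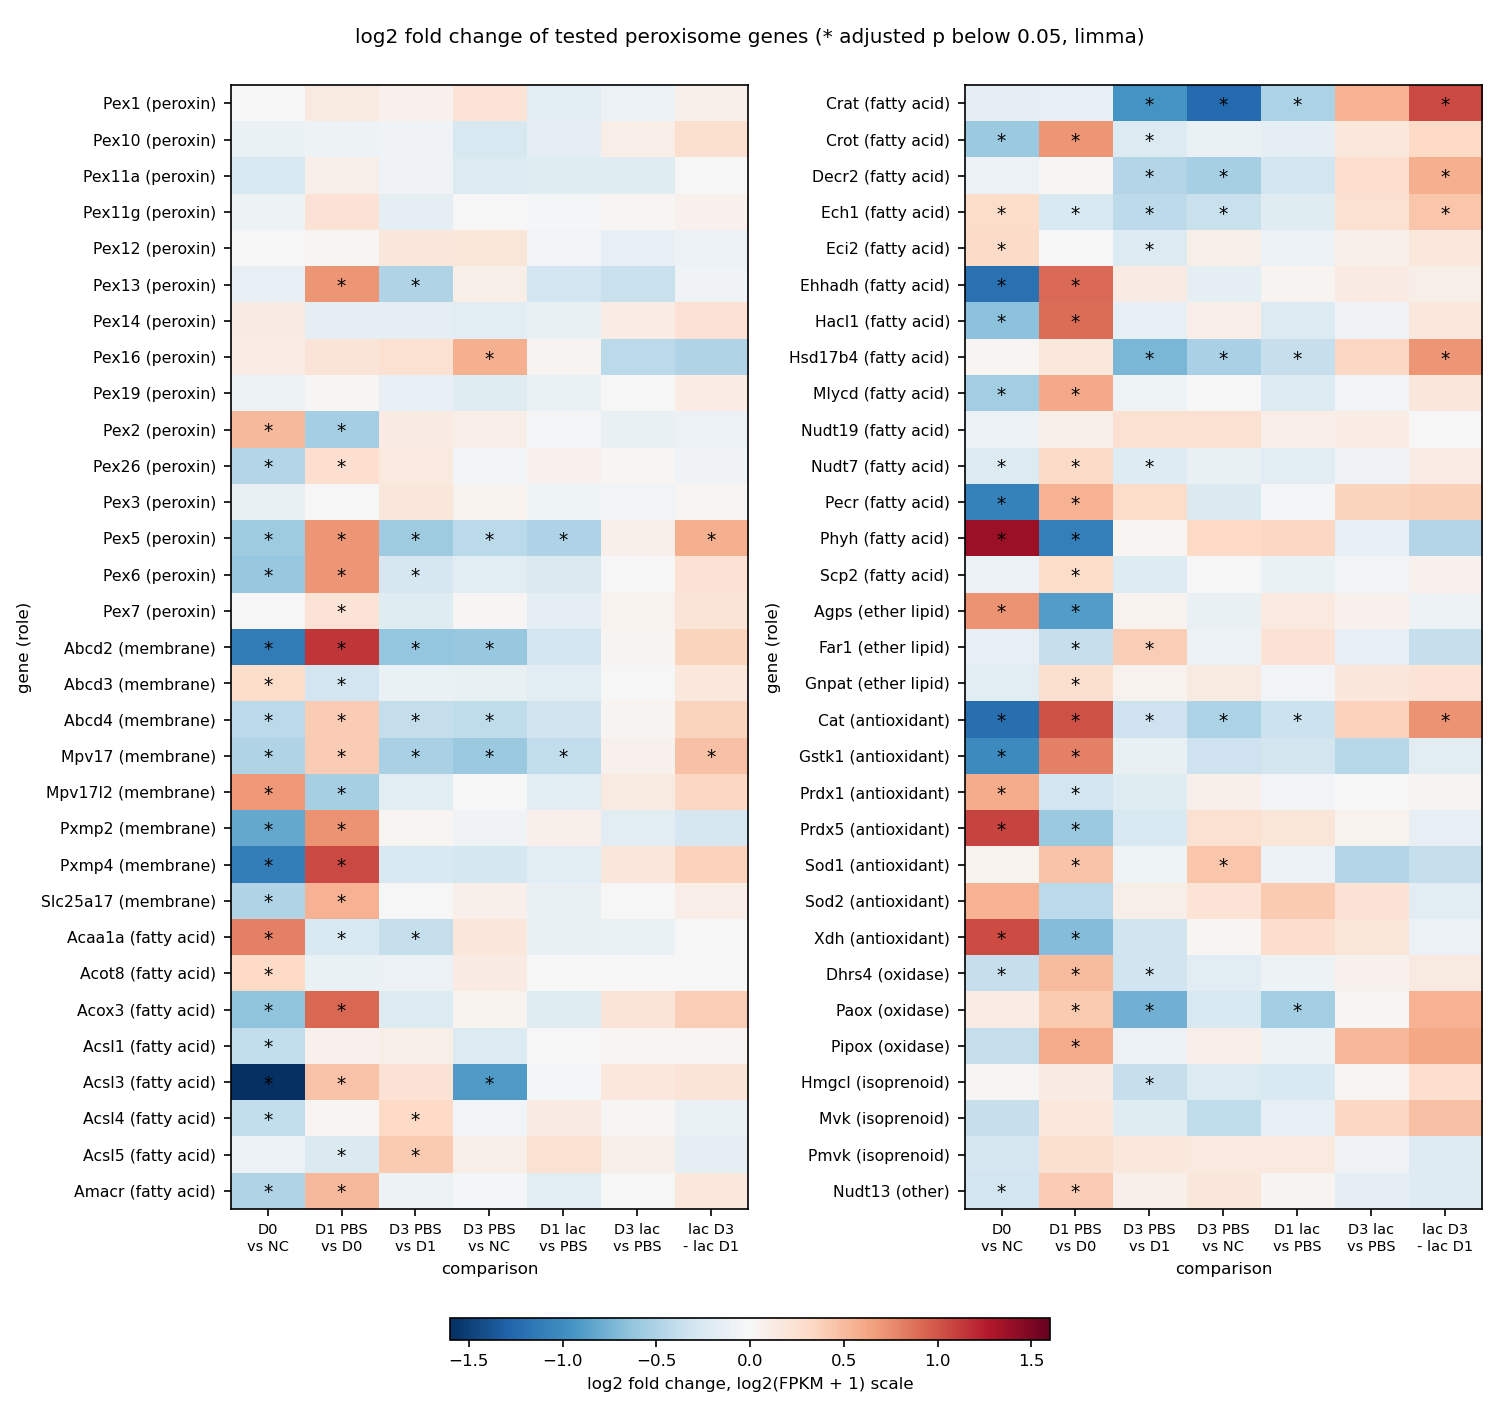
Log2 difference of 62 tested peroxisome genes (rows, by role) in the 7 comparisons (columns), on the log2(FPKM + 1) scale from blue (lower) to red (higher). Stars mark an adjusted p below 0.05 in limma; the membrane genes shown are all starred in the first 2 columns, and no gene is starred for lactate at day 3.

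The lactate comparison at day 1 asked which of these genes differed between D1 AP+Lac and D1 AP+PBS. The 7 genes called were all lower with lactate, and they included Paox, Crat, Pex5, Mpv17, Hsd17b4 and Cat. They are 0 higher and 7 lower of 65 (10.8% lower), against 5.16% higher and 4.56% lower of all genes, and the medians were -0.12 for the peroxisome genes and 0.02 for all genes. An unadjusted p below 0.05 was found for 28 of the 65 genes, the called ones included. The called genes named here were also lower from day 1 to day 3 with PBS. Both comparisons contain the D1 AP+PBS libraries, so this recurrence is not a separate observation. Group-wise, 3 of 23 fatty acid genes, 1 of 16 peroxins, 1 of 9 membrane genes, 1 of 7 antioxidant genes and 1 of 3 other oxidases were lower. The macrophage marker level was 8.68 with PBS and 8.25 with lactate, and the T and NK level 4.14 and 5.14. With the macrophage level as a covariate, 6 genes were called, 1 higher (Phyh) and 5 lower, with Cat, Mpv17, Paox and Pex5 among the lower. All genes then stood at 2.17% higher and 0.711% lower.

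Pex5 was 14.8, 20.6 and 23.2 FPKM with PBS (lowest, median, highest) and 12.1, 13.6 and 16.2 FPKM with lactate. The groups met only at their ends, and the log2 difference was -0.50 ± 0.09 (SE; adjusted p = 0.0075, limma). Mpv17 was 12, 14.4 and 18.5 FPKM and 10.0, 11.3 and 12.3 FPKM (-0.39 ± 0.08, SE; adjusted p = 0.0089). Hsd17b4 was 40.4, 51.5 and 57.7 FPKM and 31.4, 38.0 and 51.8 FPKM (-0.37 ± 0.10, SE; adjusted p = 0.023). The Hsd17b4 call was lost under median-ratio scaling and with the lymphocyte or the macrophage level as a covariate. Crat was 8.84, 13.7 and 17.2 FPKM and 7.28, 8.92 and 14.3 FPKM, with wide overlap (-0.50 ± 0.13, SE; adjusted p = 0.017). Cat was 40.3, 50.1 and 53.3 FPKM and 28.3, 39.4 and 43.2 FPKM (-0.34 ± 0.11, SE; adjusted p = 0.04). The Crat call was lost with the macrophage level as a covariate and the Cat call with the acinar level. Paox, the lowest expressed of the 7, was at a mean of 3.72 FPKM with PBS and 2.24 FPKM with lactate. For all 7 genes the ranges of the 2 groups overlapped. Acox3 (mean 14.9 and 13.1 FPKM), Phyh (32.8 and 41.4 FPKM; adjusted p = 0.14), Sod2 (14 and 19.1 FPKM) and Acsl5 (44.4 and 52.5 FPKM; adjusted p = 0.07) did not pass.

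These calls moved with single libraries. Library 5 of D1 AP+PBS was the lowest of its group for 6 of the 7 genes, and for 28 of all 65. Library 6 of D1 AP+Lac was the highest of its group for 5 of the 7, and for 24 of 65. Without that PBS library 19 genes were called (3 higher, 16 lower), and of all genes 10.2% were higher and 9.65% lower. Without that lactate library 18 were called (1 higher, 17 lower), beside 9.47% and 9.06% of all genes. Leaving out D1 AP+PBS library 1 or library 4 left 4 calls each, all lower, with 1.04% and 1.10% of all genes higher and 0.560% and 0.652% lower. Without libraries 5 and 6 of both groups, a choice made after seeing the data, 22 genes were called, 4 higher and 18 lower, with 16.4% of all genes higher and 12.3% lower. All 7 genes were among them, Crat at -0.82, Pex5 at -0.60, Hsd17b4 at -0.54 and Mpv17 at -0.53. The further lower genes included Abcd2 (-0.45), Abcd4 (-0.54), Acox3 (-0.38) and Decr2 (-0.44), and the 4 higher ones were Sod2 (0.74), Acsl5 (0.41), Phyh (0.36) and Nudt19 (0.29). A fit on the 12 day 1 libraries alone called none of them, with 20 genes at an unadjusted p below 0.05, and it called 0 of all 11960 genes.

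At day 3 no peroxisome gene was called between D3 AP+Lac and D3 AP+PBS by limma, and of all genes 0.192% were called higher and 0.184% lower. At an unadjusted p below 0.05 there were 11. Crat was 6.56, 5.53, 7.33 and 6.68 FPKM with PBS and 10.9, 10.2, 10.1 and 8.97 FPKM with lactate, with separate ranges (log2 difference 0.55 ± 0.16, SE; adjusted p = 0.10). Hsd17b4 was 25.6, 31.4, 31 and 32.7 FPKM and 35.0, 40.6, 35.9 and 41.2 FPKM, separate as well (0.33 ± 0.12, SE; adjusted p = 0.17). Cat was 39.3, 34.3, 42.8 and 36.1 FPKM and 50.3, 51.3, 39.2 and 59.1 FPKM, with 1 lactate library among the PBS values (0.37 ± 0.13, SE; adjusted p = 0.15). Sod1 was 198, 266, 187 and 243 FPKM and 134, 171, 146 and 195 FPKM (-0.47 ± 0.14, SE; adjusted p = 0.11). Gstk1 (mean 5.03 and 3.36 FPKM) and Pex16 (13.6 and 9.78 FPKM) had lower means with lactate and were not called. With the macrophage level as a covariate 7 were called, Cat, Crat and Pipox higher and Gstk1, Pex13, Pex16 and Sod1 lower, beside 8.10% of all genes higher and 2.38% lower. The acinar marker level averaged 8.17 with PBS and 6.52 with lactate. With it as a covariate 1 gene was called, higher, beside 2.72% of all genes higher and 2.53% lower. The lymphocyte level also gave 1 higher, beside 1.51% and 1.59% of all genes.

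The difference between the lactate effects (day 3 minus day 1) was tested as an interaction. It was positive for all 10 genes called, which included Crat, Cat, Hsd17b4, Pex5, Decr2, Mpv17 and Ech1. This was 15.4% of the 65 genes, with none negative, against 4.76% positive and 5.94% negative among all genes. The medians were 0.14 and 0.01. The interaction uses the libraries of both lactate comparisons, so it is not separate from them or from the change between the PBS groups. For Crat the effect was -0.50 at day 1 and 0.55 at day 3, a difference of 1.06 ± 0.21 (SE; adjusted p = 0.0052, limma). Cat moved from -0.34 to 0.37 (difference 0.71 ± 0.17, SE; adjusted p = 0.01) and Hsd17b4 from -0.37 to 0.33 (0.70 ± 0.16, SE; adjusted p = 0.0092). For Pex5 and Mpv17 the effects were -0.50 and -0.39 at day 1 and 0.08 and 0.07 at day 3. By role these were 5 of 23 fatty acid genes, 2 of 16 peroxins, 2 of 9 membrane genes and 1 of 7 antioxidant genes. Without the 4 day 1 libraries that stood apart, 18 were called, 16 positive and 2 negative, beside 13.3% and 15.2% of all genes. All 10 genes were among those 18. With the macrophage level as a covariate 13 were called, 11 positive and 2 negative (Phyh at -0.73 and Nudt13 at -0.38), beside 12.7% and 5.66% of all genes. Of the 10 genes, 7 were among the positive ones.

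**Figure D4:**
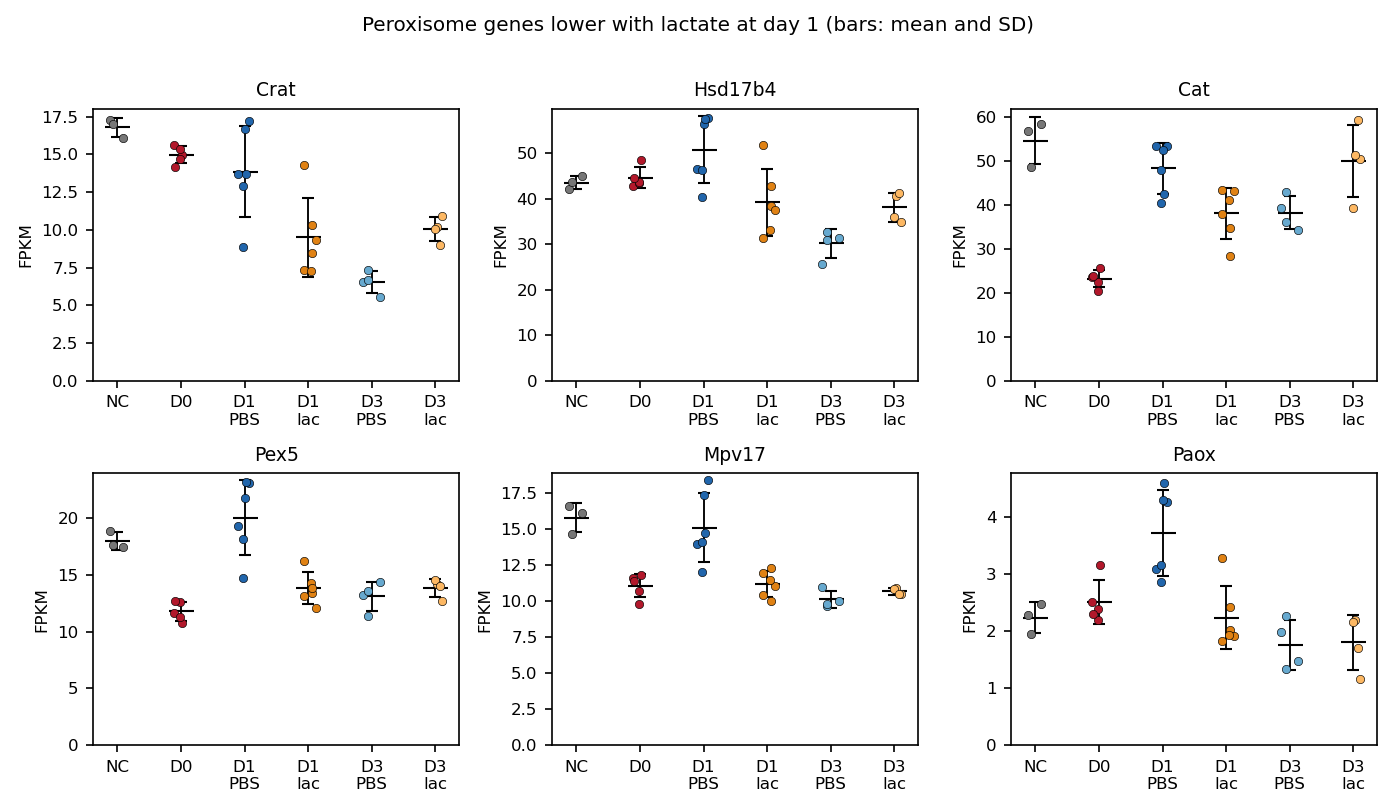
FPKM of Crat, Hsd17b4, Cat, Pex5, Mpv17 and Paox in each library; points are libraries and bars are the mean and SD, with axes from 0. At day 1 the lactate libraries lie lower on average than the PBS libraries, with overlap, and at day 3 the lactate libraries of Crat and Hsd17b4 lie above all PBS libraries.

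**Figure D5:**
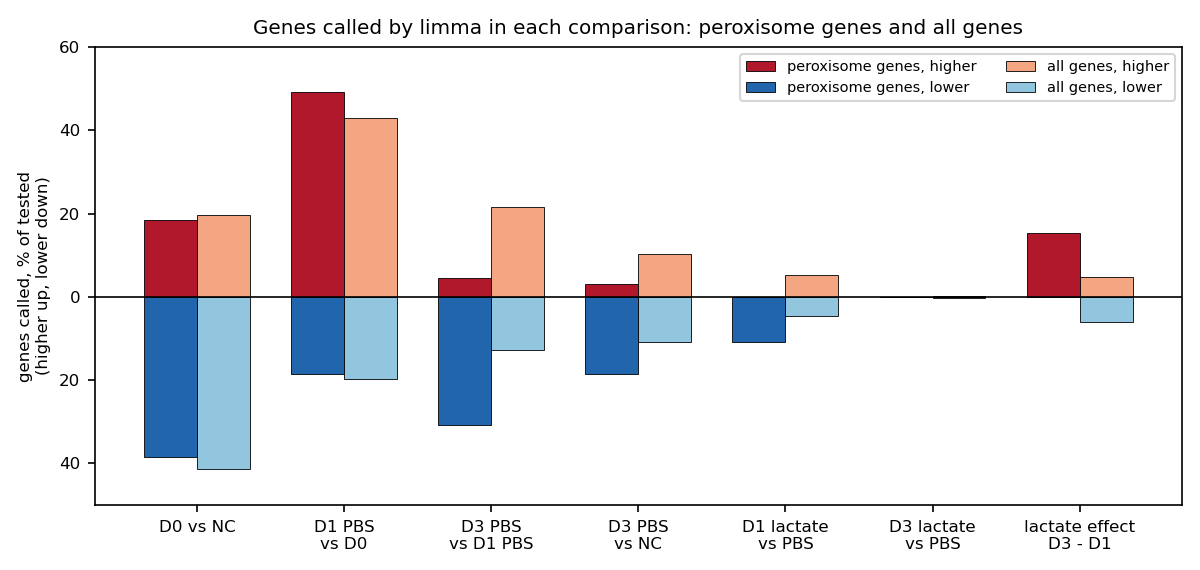
Percent of the 65 peroxisome genes and of all 11960 genes called higher (upward bars) and lower (downward bars) in each of the 7 comparisons. The peroxisome bars follow those of all genes at D0 and from D0 to day 1, and at day 3 against day 1 they reach 30.8% lower against 12.8% of all genes.

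A second list held 24 symbols of peroxisome biology that the pathway entry does not cover, of which Peds1 and Tmem189 stand for 1 gene, and 19 were tested. At D0 against NC 5 were higher and 6 lower (26.3% and 31.6%, beside 19.7% and 41.4% of all genes). From D0 to D1 AP+PBS 7 were higher and 5 lower (36.8% and 26.3%, beside 43% and 19.8%). From day 1 to day 3 with PBS 2 were higher and 6 lower (10.5% and 31.6%, beside 21.5% and 12.8%), and with lactate at day 1 there was 1 in each direction. Vapa, an endoplasmic reticulum protein that tethers peroxisomes through Acbd5, had means of 13.6 FPKM in NC, 26.5 in D0 and 14.5 in D1 AP+PBS, while Acbd5 went from 16.7 to 13.2 and 17.7 FPKM. Fis1, a division factor shared with mitochondria, rose to 101.7 FPKM at D0 from 60.2 FPKM. Among the regulators, Pparg was higher at D0 (9.4 against 5.22 FPKM) and Ppargc1b lower (0.198 against 1.06 FPKM). Rxra, the partner of the PPAR receptors, had means of 22.0 FPKM in NC, 11.5 in D0, 19.3 in D1 AP+PBS, 11.7 in D1 AP+Lac, 12.2 in D3 AP+PBS and 15.6 in D3 AP+Lac. It was lower with lactate at day 1 (log2 difference -0.65 ± 0.15, SE; adjusted p = 0.014, limma) and its lactate effects differed between the days by 0.99 ± 0.24 (SE; adjusted p = 0.013). Nbr1, a receptor for the selective autophagy of peroxisomes, had 24.4 FPKM in NC, 15.2 in D0 and 28.2 in D1 AP+PBS. Dnm1l, the GTPase that divides peroxisomes and mitochondria, was the gene that rose with lactate at day 1 (15.6 to 19.4 FPKM; adjusted p = 0.034).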

How the data were processed

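Sequencing used 10 ng of total RNA from sorted pancreatic macrophages, per the labels' protocols. Expression was deposited by the authors as FPKM, per the file headers. Tools named in the submitters' processing notes are fastp and R 3.2.0; the aligner, counting rule and genome build were not given in the sources used here. Because FPKM depends on all mapped fragments, RNA from another cell type lowers the values of the remaining genes. Genes with near-identical copies or overlapping neighbours are uncertain.

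FPKM are not counts, so limma 3.58.1 (R 4.3.3) was run on log2(FPKM + 1) with trend and robust moderation. All 28 libraries in 6 groups shared 1 estimate of the spread, genes with at least 1 FPKM in at least 3 libraries were kept (11960), and two-sided p-values were adjusted by Benjamini-Hochberg over all of them, with a threshold of 0.05. The scale understates changes of low genes. Of 518738 values above 0, all but 27 were whole multiples of 1 fragment (tolerance 0.0001), which gave the depth. Over 55 pairs of libraries of 1 group the chi-square over its degrees of freedom was at least 23.7, so each library counted as 1 replicate. The fit was tested on simulated data. Python 3.11.15 with numpy 2.4.6 and pandas 2.3.3 was used for the summaries.

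The members, the lists and the tests were chosen with earlier results of these data known. Named genes are a set of 28 members given whatever their result (3 genes enter the counts but are not reported here), plus the 5 highest and 5 lowest called members with a mean of at least 5 FPKM in a compared group; Paox, Pipox, Ehhadh, Hacl1, Pxmp4 and other genes outside this rule were named after their values were seen. The alternatives were a pseudocount of 0.1, no filter or a minimum of 5 FPKM, median-ratio scaling, the compared groups only, the replicate number as a block, acinar, lymphocyte and (added later) macrophage marker levels as covariates, leaving out each library, and (added later) leaving out libraries 5 and 6 of both day 1 groups.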

Additional observations from a re-analysis of the deposited data

Results flagged for a closer look

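In the named genes, 150 groups of 4 to 6 libraries were searched for a library far from the others by Dixon's test at the 95% level, and 11 were found; chance alone flags about 1 group in 20. In D1 AP+Lac, library 6 was far above the other 5 libraries for Acox3 (19.1 FPKM), and library 5 for Pex2 (8.59 FPKM). In D1 AP+PBS, library 5 was far above for Agps (18.0 FPKM), Pex16 (16.5 FPKM) and Sod2 (22.7 FPKM), and library 6 for Prdx1 (252.4 FPKM). These 6 values all come from libraries 5 and 6 of the day 1 groups. In D0, library 2 was far below the others for Pex2 (10.4 FPKM, the others between 10.9 and 11.1 FPKM) and library 1 far above for Ephx2 (0.0476 FPKM). In D3 AP+PBS, library 2 was far above for Scp2 (55.0 FPKM) and library 4 for Sod2 (19.5 FPKM). In D3 AP+Lac, library 3 was far above for Pex11a (1.43 FPKM).

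The effect of lactate differed between day 3 and day 1 by the interaction test for 6 named genes. The log2 differences, all positive, were 1.06 for Crat, 0.71 for Cat, 0.70 for Hsd17b4, 0.57 for Pex5, 0.57 for Decr2 and 0.46 for Mpv17.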

How the results depend on the processing

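The numbers of peroxisome genes called were 37 (D0 against NC), 44 (D1 AP+PBS against D0), 23 (D3 against D1 AP+PBS), 14 (D3 AP+PBS against NC), 7 (lactate at day 1), 0 (lactate at day 3) and 10 (interaction). A pseudocount of 0.1 and both filters kept each within 1.5 times of these. With the acinar covariate they were 15, 28 and 1 for D0, D1 against D0 and lactate at day 3. With the lymphocyte covariate they were 27, 15 and 1 for D1 against D0, D3 against D1 and lactate at day 3. With the macrophage covariate they were 5 for D3 against D1 and 7 for lactate at day 3. The compared groups alone gave 0 for lactate at day 1. Leaving out libraries 5 and 6 of both day 1 groups gave 22 for lactate at day 1 and 18 for the interaction. Leaving out 1 library at a time gave 33 to 38, 40 to 45, 18 to 26, 6 to 15, 4 to 19, 0 to 0 and 7 to 15 in the order above. The cause of these changes was not tested.

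The sign of 11 named log2 differences turned. With the lymphocyte covariate Gnpat was 0.40 and Hsd17b4 -0.44 at D0, and Acaa1a 0.17, Acsl3 -0.28, Gnpat -0.40 and Xdh 0.41 from D0 to day 1. With the acinar covariate Xdh was -0.19 at D0. With median-ratio scaling Acsl4 was -0.22 and Gnpat -0.012 from D0 to day 1. With the macrophage covariate Abcd2 was 0.021 at day 3 against day 1 and 0.025 against NC.

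Whether replicate numbers pair libraries is not stated. At day 1 the deviations of same-numbered lactate and PBS libraries correlated at 0.49, 0.61, 0.35 and 0.53 for numbers 2, 3, 5 and 6 and at -0.34 and -0.21 for numbers 1 and 4; at day 3 they ran from -0.53 to 0.28. Not every pair was positive, so the libraries were treated as unpaired, and 3 of 12 and 1 of 8 libraries correlated best with their own number. With the replicate number as a block the calls were 37, 43, 20, 12, 8, 0 and 11. Groups of 3 to 6 libraries limit what can be detected at these depths.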

Other observations

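The mitochondrial enzymes of fatty acid oxidation were read beside the peroxisome genes. Of 17 listed, all were tested. At D0 against NC 4 were higher and 4 lower (23.5% each, beside 19.7% higher and 41.4% lower of all genes). From D0 to D1 AP+PBS 5 were higher and 3 lower (29.4% and 17.6%, beside 43% and 19.8%). From day 1 to day 3 with PBS 0 were higher and 5 lower (29.4%, beside 21.5% higher and 12.8% lower of all genes). Slc25a20, the carrier of acylcarnitines into mitochondria, had means of 15.8 FPKM in NC, 37.0 in D0 and 25.8 in D1 AP+PBS. Cpt1a, which makes those acylcarnitines, had means of 29.7, 48.2 and 48.6 FPKM in the same groups and 31.7 FPKM in D3 AP+PBS. Acadm, a medium-chain dehydrogenase, was lower at D0 (19.0 against 31.5 FPKM), and so was the dienoyl-CoA reductase Decr1 (3.86 against 7.55 FPKM). With lactate at day 1, Acadl, a long-chain dehydrogenase, was the 1 gene of the list that was called, from 38.4 to 51.3 FPKM (log2 difference 0.41 ± 0.09, SE; adjusted p = 0.013, limma). Its lactate effects differed between day 3 and day 1 by -0.57 (adjusted p = 0.018), opposite in sign to those of Cpt1a (0.61) and Hadha (0.38).

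Ephx2, a fatty acid epoxide hydrolase, was not tested. It ranged from 0.105 to 0.244 FPKM in NC, from 0 to 0.0476 FPKM in D0 and from 0.0588 to 0.321 FPKM in D1 AP+PBS.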
